A study of Homo sapiens with 6 samples.

Results

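The 40 genes described here encode tensins, integrin subunits and the adaptor, kinase and actin-linking proteins of focal adhesions. They were taken by gene symbol from a list of adhesion genes out of the 59608 genes of a read count table of HepG2 cells, an established human liver cancer cell line. Endogenous VEZF1, a zinc finger transcription factor, had been silenced in all cells with a lentivirus-encoded single guide RNA, and an adenovirus system for re-expression is described in the study's methods. The VEZF1-WT group (3 libraries) received the wild-type protein, and the VEZF1-2A group (3 libraries) received a form in which both serines that carry O-linked N-acetylglucosamine (O-GlcNAc) are replaced by alanine. The comparison addresses which genes differ between cells with the wild-type protein and cells with this mutant. In other hepatoma cells the paper reports a shorter half-life and more ubiquitination of the mutant. The amount of VEZF1 protein may therefore differ between the groups, and the counts cannot part this from the loss of the sugar. Both groups share the guide virus and the silenced gene, and a library of cells without re-expressed VEZF1 was not analysed here. The labels do not say whether the 3 libraries of a group came from separate cultures, so the p-values measure only the spread between these libraries.

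Focal adhesions are the sites where a cell grips the extracellular matrix. Integrins, each a pair of an alpha and a beta subunit, bind the matrix outside the cell, and their short cytoplasmic tails bind talin, kindlin and tensin inside it. These proteins connect the tail to actin filaments, to contractile myosin and to kinases such as FAK and SRC. Tensins bind a short tail motif of beta integrins through a phosphotyrosine-binding domain and hold them in long-lived adhesions. In hepatoma cells, integrin beta 1 is the common beta chain of receptors for laminin, collagen and fibronectin.

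The libraries held 28756765 to 57199396 counts. All 8 hepatocyte and liver cancer markers examined, among them ALB, AFP and HNF4A, were detected, and their summed level was 15000 to 18800 CPM (counts scaled to the library's total) with VEZF1-WT and 14400 to 18400 with VEZF1-2A. The 5 endothelial markers summed to 2.2 to 3.53 CPM with VEZF1-WT and 2.2 to 4.35 with VEZF1-2A. The 7 stellate cell and fibroblast markers, with LUM at 0 in every library, summed to 29.3 to 37.5 and 29.2 to 40.8 CPM. The 5 leukocyte markers, nearly all of their sum from CD68 and LYZ, summed to 668 to 776 and 657 to 756 CPM, while PTPRC, which defines leukocytes, did not exceed 0.121 CPM. VEZF1 itself had 59.3, 45.6 and 40 CPM with VEZF1-WT and 46.2, 48.6 and 38.9 with VEZF1-2A, so the target did not separate the groups at the RNA level. Replicate 3 of each group stood apart from the other 4 libraries: the first principal component, with 34% of the variance, placed them at 21.7 and 34.3 and the others between −21.2 and −3.7. Results are therefore also given with both libraries numbered 3 left out, an alternative chosen after seeing the data. The second component, with 20.4% of the variance, placed replicate 1 of VEZF1-2A at 31.4 and the others between −18.5 and 6.4. Each library was also left out singly.

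VEZF1 binds runs of guanine in DNA, and the sequences before the start sites of the members were searched for runs of at least 4 G or 4 C (GGGG or CCCC, the same motif on the other strand, with touching letters counted as 1 run). Promoter sequences from RefSeq (GRCh38.p14) matched 28 of the 40 members by symbol. In the 250 bases upstream of the start site farthest upstream, 28 of 28 members held such a run, against 86.4% of the 27305 genes listed, with a median of 6.5 runs against 3. The members' windows also had a higher GC content (median 71.8% against 57.6%), and the part of this composition in the number of runs was not tested. The sequences below show TNS1, the member with the lowest log2 fold change, beside 3 integrin genes, ITGB1, ITGA6 and ITGA5, whose levels moved together between libraries. Capitals mark the runs, and bases that lie in exons of the count table's annotation were left out. The windows of TNS1 and ITGB1 lie inside these genes as the count table draws them, since its annotation begins both genes farther upstream than RefSeq does.
TNS1 (chr2:218010422-218010525, minus strand, 104 bases): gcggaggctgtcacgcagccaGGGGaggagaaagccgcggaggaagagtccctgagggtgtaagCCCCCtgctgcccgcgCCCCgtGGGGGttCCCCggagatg
ITGB1 (chr10:32958233-32958480, minus strand, 248 bases): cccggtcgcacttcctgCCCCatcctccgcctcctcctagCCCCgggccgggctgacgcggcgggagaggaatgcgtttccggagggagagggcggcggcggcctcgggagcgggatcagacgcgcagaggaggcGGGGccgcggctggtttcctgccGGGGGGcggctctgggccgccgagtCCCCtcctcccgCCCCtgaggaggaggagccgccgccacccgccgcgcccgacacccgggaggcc
ITGA6 (chr2:172427086-172427335, plus strand, 250 bases): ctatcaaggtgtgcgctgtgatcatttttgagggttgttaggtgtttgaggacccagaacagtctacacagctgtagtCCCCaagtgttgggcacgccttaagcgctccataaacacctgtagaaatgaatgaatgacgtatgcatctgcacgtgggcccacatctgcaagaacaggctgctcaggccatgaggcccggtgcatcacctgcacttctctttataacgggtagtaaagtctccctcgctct
ITGA5 (chr12:54419267-54419516, minus strand, 250 bases): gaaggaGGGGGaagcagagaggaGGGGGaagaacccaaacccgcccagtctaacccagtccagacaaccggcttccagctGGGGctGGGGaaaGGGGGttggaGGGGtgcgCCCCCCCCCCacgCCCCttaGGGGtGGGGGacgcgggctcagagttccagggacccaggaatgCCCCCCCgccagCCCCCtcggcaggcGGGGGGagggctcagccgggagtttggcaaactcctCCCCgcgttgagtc
Of the windows searched, that of TNS1 held 9 runs in all, of which 5 lie in the stretch shown and the rest in the 146 bases left out as exon. That of ITGB1 held 7, of which 6 are whole in the stretch shown, and that of ITGA6, the least GC-rich of these 4 at 50.8%, held 1. ITGA5 had 14 runs, the longest of 10 bases. A match is a description of the letters, and binding of VEZF1 at these windows was not measured in the counts.

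The members spanned a wide range of levels per exon length, expressed as CPM per kilobase of exon (RPKM). The non-muscle myosin heavy chain MYH9 was highest (276 to 338 RPKM over the 6 libraries), followed by ITGB1 (127 to 168) without overlap between them. ACTN4 came next, and then ITGA6 (46.2 to 62.7), which overlapped ACTN1 (47.5 to 55.1). At the low end, ITGB6 had 0 counts in every library, where 3 counts correspond to 0.0532 to 0.103 CPM. A further 3 members, ITGB8 (2 to 8 counts per library), PARVB (2 to 12) and CAV1 (2 to 8), also fell under the filter on low counts. The level plot by role shows the gap between the abundant members and this group.

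**Figure D1:**
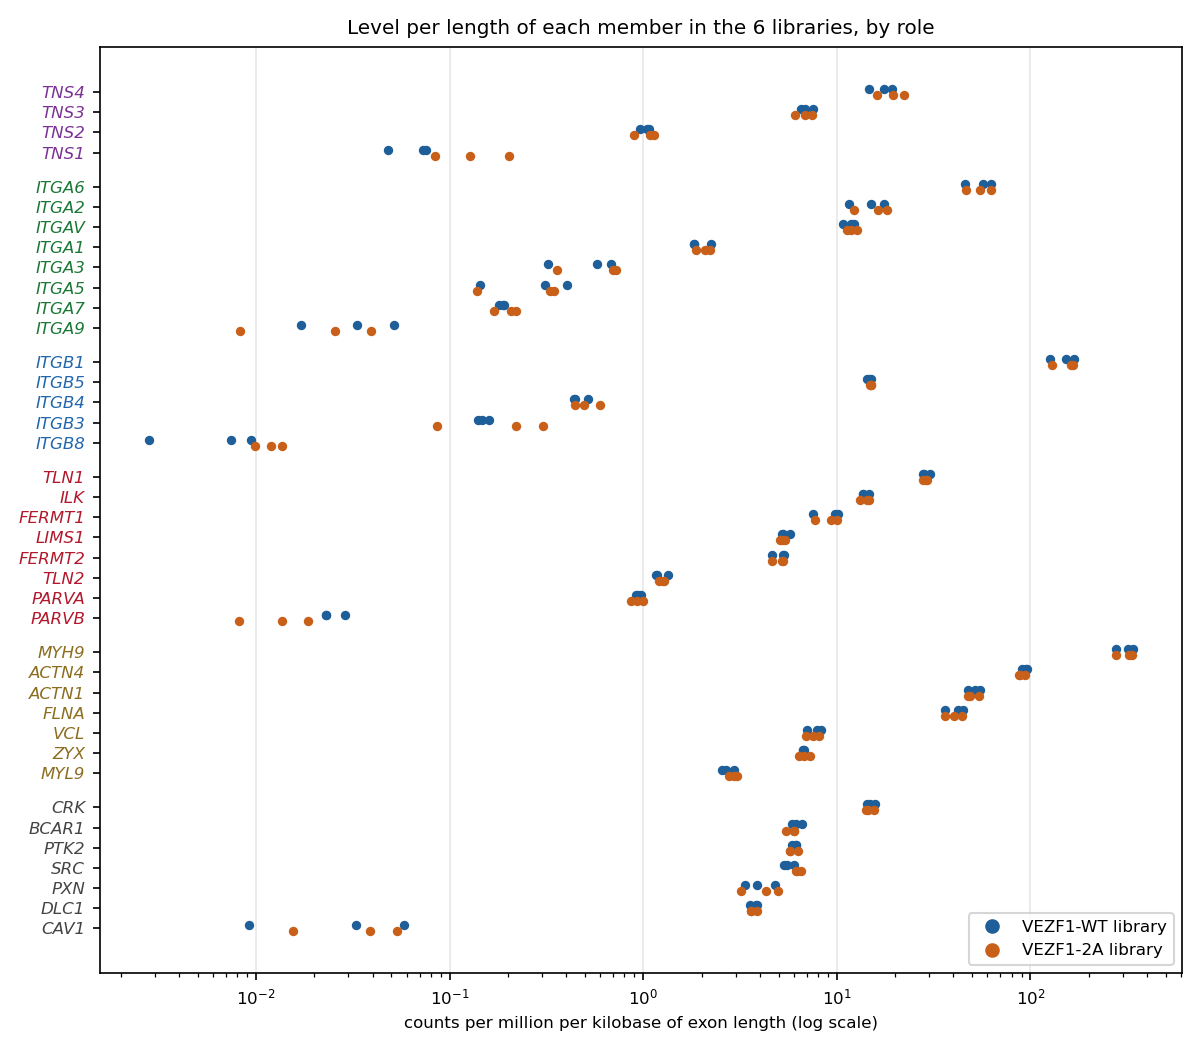
Level per exon length of each member in the 6 libraries (x axis, RPKM on a log scale; blue, VEZF1-WT; orange, VEZF1-2A; 1 point per library), with genes grouped by role on the y axis. MYH9 and ITGB1 are the highest members and TNS1 lies between 0.048 and 0.203 RPKM. ITGB6, at 0 in all libraries, is not drawn.

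Within the tensins, TNS4 was the most abundant per length and TNS1 the least. TNS4, which lacks the actin-binding region of the other tensins, held 67.9% ± 4.32 (SD, n = 3) of the summed tensin RPKM with VEZF1-WT and 70.5% ± 4.98 (SD, n = 3) with VEZF1-2A. TNS3 followed with 27.8% ± 4.26 and 25.1% ± 4.6, and TNS2 with 4.09% ± 0.155 and 3.82% ± 0.528. TNS1, which links integrin tails to actin, held 0.258% ± 0.0435 with VEZF1-WT and 0.513% ± 0.226 with VEZF1-2A. Its mean level was 0.0655 RPKM and 0.138 RPKM respectively, against 149 and 152 RPKM for ITGB1. In the order of the 40 members TNS1 was at position 35, and its range overlapped that of ITGB3 above it and CAV1 below it.

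With VEZF1-WT, TNS1 (chr2:217799588-218033982, minus strand, GRCh38) had 1.18, 1.24 and 0.781 CPM, from 56, 44 and 44 counts. The VEZF1-2A libraries had 1.37, 3.3 and 2.08 CPM, from 40, 132 and 69 counts. Each VEZF1-WT library was below each VEZF1-2A library, although replicate 1 of VEZF1-2A lay close to the VEZF1-WT values, and replicate 2 lay far above the other libraries. The log2 fold change of VEZF1-WT over VEZF1-2A was −1.11 (standard error 0.32, 95% interval −1.82 to −0.41), and the quasi-likelihood test of edgeR gave an unadjusted p of 0.00541. Adjusted after Benjamini and Hochberg for all 19111 genes in the edgeR fit, p was 0.9996, which was also the smallest adjusted value of any gene, and the difference did not pass the threshold of 0.05. The two-sided exact permutation test gave p = 0.1, the smallest value that 3 against 3 allows. Without replicate 2 of VEZF1-2A the log2 fold change was −0.72 (unadjusted p = 0.0411, edgeR), and without both libraries numbered 3 it was −0.99 (unadjusted p = 0.0123, edgeR). TNS1 passed the adjusted threshold with no filter on low counts (adjusted p = 0.006828, quasi-likelihood test of edgeR, Benjamini-Hochberg adjusted) and in none of the other alternatives in which it was tested. It shares 179 exon bases with AC010136.1, to which 2 counts were assigned in all 6 libraries together.

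The other tensins had no difference that passed the test. TNS2 had 8.56, 8.39 and 7.67 CPM with VEZF1-WT and 8.99, 7.17 and 8.57 with VEZF1-2A, a log2 fold change of −0.00 (95% interval −0.26 to 0.25). It shares 380 exon bases with AC068888.1, which received 24373 counts against 1969 for TNS2, so reads may have been split or shared between them. TNS3 had 80.2, 76.7 and 88.4 CPM against 71.4, 80.6 and 87, a log2 fold change of 0.04 (95% interval −0.14 to 0.22). The intervals of both genes exclude a change as large as the point estimate for TNS1. TNS4 had 85.9, 93.9 and 71.1 CPM with VEZF1-WT and 108, 95 and 79 with VEZF1-2A, and the groups overlapped. Its log2 fold change was −0.17 (95% interval −0.44 to 0.10; unadjusted p = 0.191, edgeR), and single libraries moved it. It was −0.06 without replicate 1 of VEZF1-2A (unadjusted p = 0.638, edgeR) or replicate 3 of VEZF1-WT (0.583), −0.28 without replicate 3 of VEZF1-2A (0.0223), and −0.18 without both libraries numbered 3 (0.0316). In the fit blocked by replicate number its value was −0.17 (unadjusted p = 0.0113, adjusted p = 0.9993, edgeR), and each VEZF1-WT library was below the VEZF1-2A library of its number. The plot of tensins by library shows that replicate 3 was the lowest TNS4 library in each group, and the highest for TNS3.

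**Figure D2:**
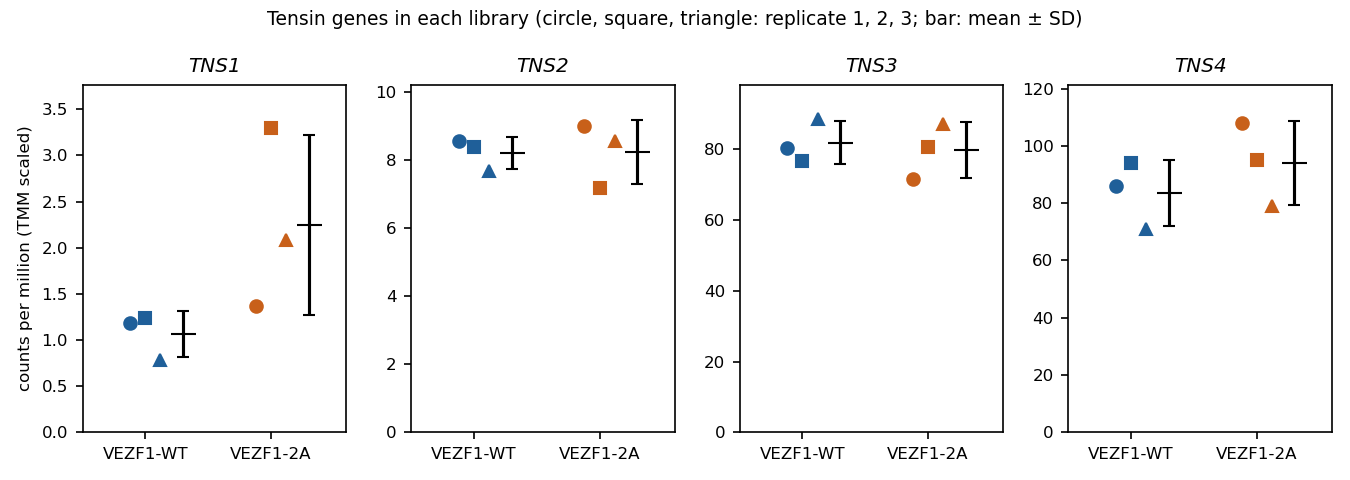
Level of the 4 tensin genes in each library (y axis, CPM after TMM scaling, from 0; blue, VEZF1-WT; orange, VEZF1-2A; circle, square and triangle, replicates 1, 2 and 3; bar, mean ± SD). TNS1 lies between 0.781 and 1.24 with VEZF1-WT and between 1.37 and 3.3 with VEZF1-2A, while the groups of TNS2, TNS3 and TNS4 overlap.

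Of the 8 integrin alpha subunits, 0 had an unadjusted p under 0.05, against 2.13% of all genes tested. Their median log2 fold change was −0.05. ITGA6 (chr2:172427354-172506459, plus strand, GRCh38), the laminin receptor chain that pairs with ITGB1 or ITGB4, made up 65.2% ± 0.51 (SD, n = 3) of the summed alpha RPKM with VEZF1-WT and 64.1% ± 0.683 (SD, n = 3) with VEZF1-2A. Its CPM were 382, 419 and 310 with VEZF1-WT and 421, 370 and 312 with VEZF1-2A, a log2 fold change of 0.01 (95% interval −0.26 to 0.28). The library numbered 3 was the lowest of its group in both, and the groups overlapped almost fully. The collagen receptor chain ITGA2, with 17.4% and 18.1% of the alpha RPKM, and ITGAV, with 13.9% and 14.1%, made up most of the rest. ITGAV (chr2:186590056-186680901, plus strand, GRCh38), a chain of vitronectin receptors, had 97.8, 101 and 88.4 CPM against 105, 97.8 and 92.6, a log2 fold change of −0.04 (95% interval −0.20 to 0.11).

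The fibronectin receptor chain ITGA5 was far less abundant. ITGA5 (chr12:54395261-54419266, minus strand, GRCh38) had 109, 106 and 60 counts with VEZF1-WT (2.3, 2.98 and 1.06 CPM) and 71, 102 and 34 with VEZF1-2A (2.44, 2.55 and 1.03 CPM). Its log2 fold change was 0.04, with a 95% interval from −0.83 to 0.91 that leaves room for a change in either direction. ITGA3, another laminin receptor chain, named after its values were seen, had 6.68, 5.64 and 3.16 CPM against 6.86, 7.1 and 3.5, a log2 fold change of −0.19 (95% interval −0.84 to 0.47). In both genes the libraries numbered 3 had about the same low level in either group. ITGA9 had 5 to 24 counts per library with VEZF1-WT and 2 to 13 with VEZF1-2A, and its log2 fold change of 0.46, the highest of any member, had an interval from −0.80 to 1.73.

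ITGB1 carried nearly all of the beta subunit level. It held 90.6% ± 1.41 (SD, n = 3) of the summed beta RPKM with VEZF1-WT and 90.5% ± 1.08 (SD, n = 3) with VEZF1-2A, and ITGB5, a partner of ITGAV, held 9.06% and 9.05%. ITGB1 (chr10:32900318-33005792, minus strand, GRCh38) had 914, 1010 and 762 CPM with VEZF1-WT and 997, 971 and 775 with VEZF1-2A. The groups overlapped, and the log2 fold change was −0.03 (standard error 0.11, 95% interval −0.28 to 0.22; unadjusted p = 0.781, edgeR). ITGB3, named after its values were seen, is the beta chain of the platelet fibrinogen receptor and also pairs with ITGAV. It had 44, 36 and 50 counts (0.93, 1.01 and 0.887 CPM) with VEZF1-WT and 56, 56 and 18 (1.92, 1.4 and 0.543 CPM) with VEZF1-2A. The log2 fold change of ITGB3 was −0.45 (95% interval −1.27 to 0.38; unadjusted p = 0.256, edgeR) with all libraries, and −0.81 (unadjusted p = 0.00969, adjusted p = 0.9206, quasi-likelihood test of edgeR, Benjamini-Hochberg adjusted) without replicate 3 of VEZF1-2A. Without replicate 1 of VEZF1-2A it was −0.07 (unadjusted p = 0.851, edgeR), so single libraries decide the value. AC068234.1 covers 35.74% of the ITGB3 exon length and received 157 counts against 260 for ITGB3, so reads of these genes may have been split in a way the table does not show.

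Among the integrin activators and the ILK complex, 0 of the 7 members tested had an unadjusted p under 0.05, against 2.13% of all genes tested. Their log2 fold changes lay between −0.02 and 0.05. Talin 1 (TLN1), which binds the beta tail and switches the integrin to its active state, held 44.6% of the group's summed RPKM with VEZF1-WT and 44.7% with VEZF1-2A. It had 278, 300 and 277 CPM with VEZF1-WT and 289, 284 and 277 with VEZF1-2A. The log2 fold change was 0.01 with a 95% interval from −0.12 to 0.13, so a change of the size estimated for SRC lies outside it. ILK, the scaffold that joins parvin and PINCH (LIMS1) to the tail, was at 13.2 to 14.7 RPKM, but 68.14% of its exon length is shared with TAF10.

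Of the 7 actin linkers and myosin chains, 0 had an unadjusted p under 0.05, against 2.13% of all genes tested. Their log2 fold changes ran from −0.10 to 0.06. MYH9 (chr22:36281280-36387967, minus strand, GRCh38) had 2850, 3010 and 2460 CPM with VEZF1-WT and 2990, 2880 and 2480 with VEZF1-2A, a log2 fold change of −0.00 (95% interval −0.20 to 0.19). It held 60.4% and 61.2% of the group's summed RPKM.

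Of the 6 signalling adaptors and kinases tested, 1, SRC, had an unadjusted p under 0.05, against 2.13% of all genes tested. SRC (chr20:37344685-37406050, plus strand, GRCh38), the tyrosine kinase that joins FAK at adhesions, had 34.6, 36 and 39.1 CPM with VEZF1-WT and 39.7, 42.4 and 40.5 with VEZF1-2A. The groups did not overlap, but the highest VEZF1-WT library and the lowest VEZF1-2A library were close. The means were 36.6 ± 2.28 CPM (SD, n = 3) and 40.9 ± 1.41 CPM (SD, n = 3), a log2 fold change of −0.16 with a standard error of 0.07. The unadjusted p was 0.0374 and the adjusted p 0.9996 (quasi-likelihood test of edgeR, Benjamini-Hochberg adjusted), and the exact permutation test gave 0.1. The unadjusted p exceeded 0.05 without replicate 1 of VEZF1-WT (0.139, edgeR), replicate 2 of VEZF1-WT (0.0915) or replicate 2 of VEZF1-2A (0.122), under DESeq2 (0.0606) and with no filter on low counts (0.0746, edgeR). CRK, the adaptor that reads phosphorylated p130Cas (BCAR1), was the most abundant member of this group per length, with 64, 60.4 and 58.3 CPM with VEZF1-WT and 57.4, 58.9 and 63.1 with VEZF1-2A. Its log2 fold change was 0.03 (95% interval −0.12 to 0.17).

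Over all 36 members tested, 2 (5.56%), TNS1 and SRC, had an unadjusted p under 0.05, against 408 (2.13%) of the 19111 genes tested. Both were lower with VEZF1-WT, where the share of all genes was 1.3%, and 0 members were higher, where it was 0.832%. At an adjusted p under 0.05 there were 0 members and 0 genes of any kind in edgeR's quasi-likelihood test (0% of all genes tested), while DESeq2 called 3 genes, none of them a member. The groups did not overlap in 2 of the 36 members, again TNS1 and SRC, against 7.36% of all genes. Both of these lay lower with VEZF1-WT, as 3.86% of all genes did. The log2 fold change was below 0 in 19 members and above 0 in 17, with a median of −0.00 and a median size of 0.04, against 0.07 over all genes. The plot of fold changes shows the point of TNS1 below those of the other members, which centre near 0. The interval of TNS1 (−1.82 to −0.41) overlaps those of other members. Among them are the wide intervals of the low genes ITGA3, ITGA5, ITGA9 and ITGB3 (−1.27 to 0.38 for ITGB3) and that of TNS4 (−0.44 to 0.10). With both libraries numbered 3 left out, 4 members (TNS1, TNS4, ITGB3 and SRC) had an unadjusted p under 0.05. All were lower with VEZF1-WT, where the share of all genes was 2.49% (4.3% in either direction). The groups of 13 members did not overlap in that setting, against 33.3% of all genes. Each member of the 4 had an adjusted p of at least 0.9896 there (quasi-likelihood test of edgeR, Benjamini-Hochberg adjusted).

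**Figure D3:**
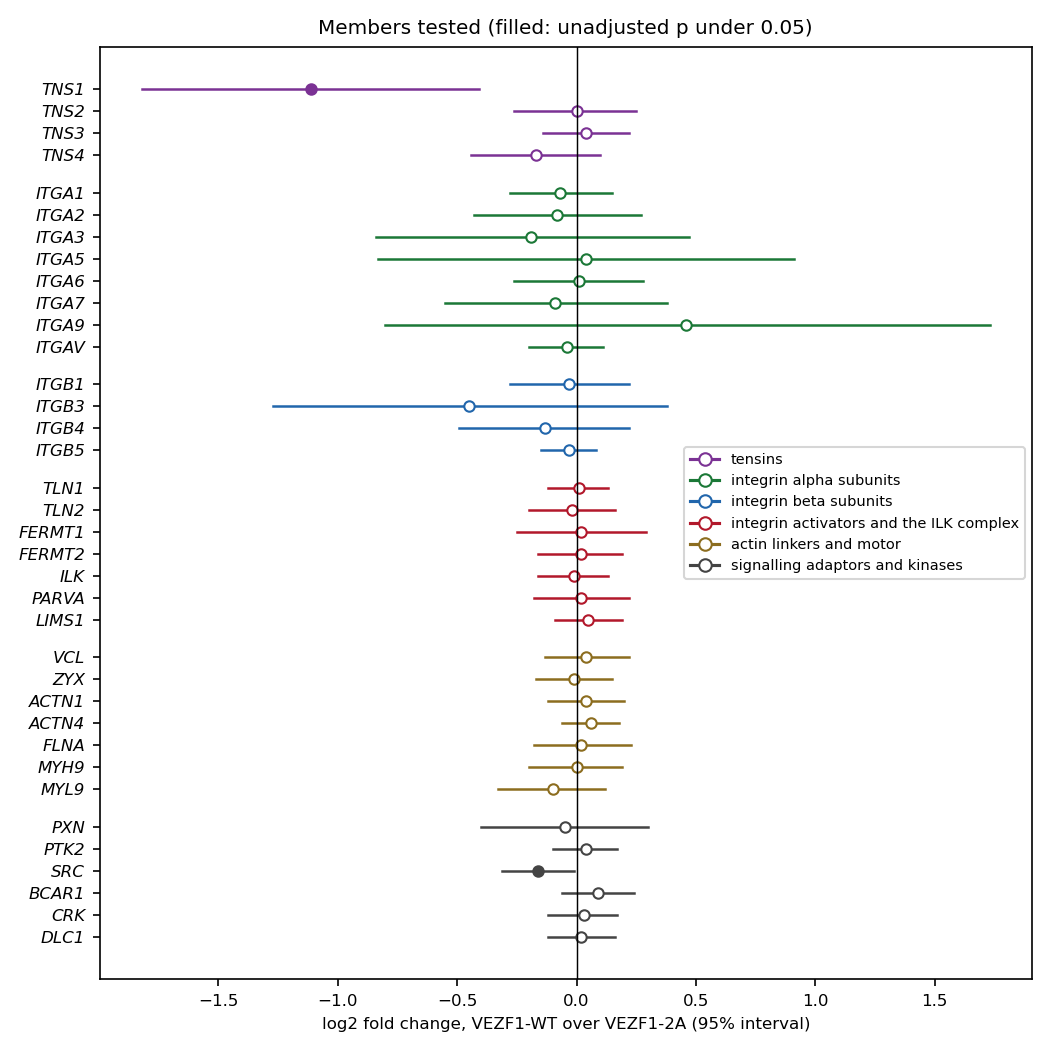
Log2 fold change of VEZF1-WT over VEZF1-2A for the 36 members tested (x axis; y axis, genes by role; point, estimate; line, 95% interval; filled point, unadjusted p under 0.05). TNS1 (−1.11) and SRC (−0.16) are the filled points, and the other intervals include 0.

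The libraries numbered 3 stood apart in 5 of 8 integrin alpha subunits, 2 of 4 beta subunits and 5 of 7 actin linkers and myosin chains tested. Among integrin activators and the ILK complex they did so in 2 of 7 (28.6%), against 30.7% of all genes. For signalling adaptors and kinases it was 1 of 6 (16.7%). For the 4 tensins it was 2, TNS4 lower and TNS3 higher. In 16 of the 36 members tested (44.4%), both libraries numbered 3 were below the other 4 libraries, which held for 15.3% of all genes tested. In 1 member, TNS3, both were above, which held for 15.4% of all genes. Together these are 17 members (47.2%), against 30.7% of all genes. This count was chosen after the libraries were seen to stand apart, and replicate numbers have no meaning in the labels beyond naming a library. The 16 were TNS4, the alpha subunits ITGA2, ITGA3, ITGA5, ITGA6 and ITGAV, the beta subunits ITGB1 and ITGB3, the activators TLN1 and FERMT1 (kindlin 1), the linkers VCL, ZYX, ACTN1 and FLNA, the motor MYH9, and PXN (paxillin). The mean log2 level of the libraries numbered 3 minus that of the other 4 was −1.21 for ITGA5, −0.96 for ITGA3, −0.78 for ITGB3 and −0.49 for ITGA2. It was −0.34 for ITGB1, −0.35 for ITGA6 and −0.25 for MYH9, and 0.18 for TNS3. It was small for TLN1 (−0.06) and ZYX (−0.08). For ITGB3 the difference lay mostly with VEZF1-2A (0.543 CPM against 1.92 and 1.4), while the VEZF1-WT libraries were close (0.887 against 0.93 and 1.01). TNS1 was not among the 16, with a difference of −0.30 and replicate 3 of VEZF1-2A above replicate 1.

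The summed CPM of all members showed the same order, with 6367 and 6393 in the libraries numbered 3 of VEZF1-WT and VEZF1-2A and 7184 to 7588 in the other 4. MYH9 was the largest part of this sum, with 2460 and 2480 CPM in the libraries numbered 3. Per gene the shift was smaller. The median log2 ratio of the members tested to their own mean was 0.01 to 0.07 in the other 4 libraries and −0.04 and −0.07 in those numbered 3. In the same libraries the summed endothelial markers were at their lowest (2.2 CPM in each group) and the summed hepatocyte markers at their highest (18800 and 18400 CPM). The stellate cell and fibroblast sums (37.5 and 40.8 CPM) and the leukocyte sums (776 and 756 CPM) were also at their highest there. Single markers did not all follow these sums. ACTA2 gave most of the stellate sum (35 and 37.4 CPM there), and LYZ gave the leukocyte rise (663 and 640 CPM, against 493 to 555). CD68 was lowest there, at 112 and 116 CPM against 145 to 185. AFP (3640 and 3480 CPM, against 1760 to 2070), APOA1, APOB and TTR were highest there. ALB, SERPINA1 and HNF4A were highest in replicate 2 of VEZF1-2A. The share of counts in the 10 most abundant genes was 9.77% and 10.2%, against 8.88% to 9.65% in the others, and mitochondrial genes took 8.28% and 8.54% within an overall range of 7.94% to 8.55%. The part of these in the members' lower levels was not tested. In bulk samples fewer cells of a type and less RNA per cell cannot be told apart. The heat map of members relative to their own mean shows both libraries numbered 3 below that mean for these 16 genes, though close to it for TLN1 and ZYX. In contrast, ITGA1, ITGA9, ITGB5 and MYL9 were not lower there on average (0.16, 0.51, 0.02 and 0.13 on the log2 scale). Nor were TNS3 (0.18), TLN2 (0.12), FERMT2 (0.10), PARVA (0.08), SRC (0.06), PTK2 (0.03) and CRK (0.01).

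**Figure D4:**
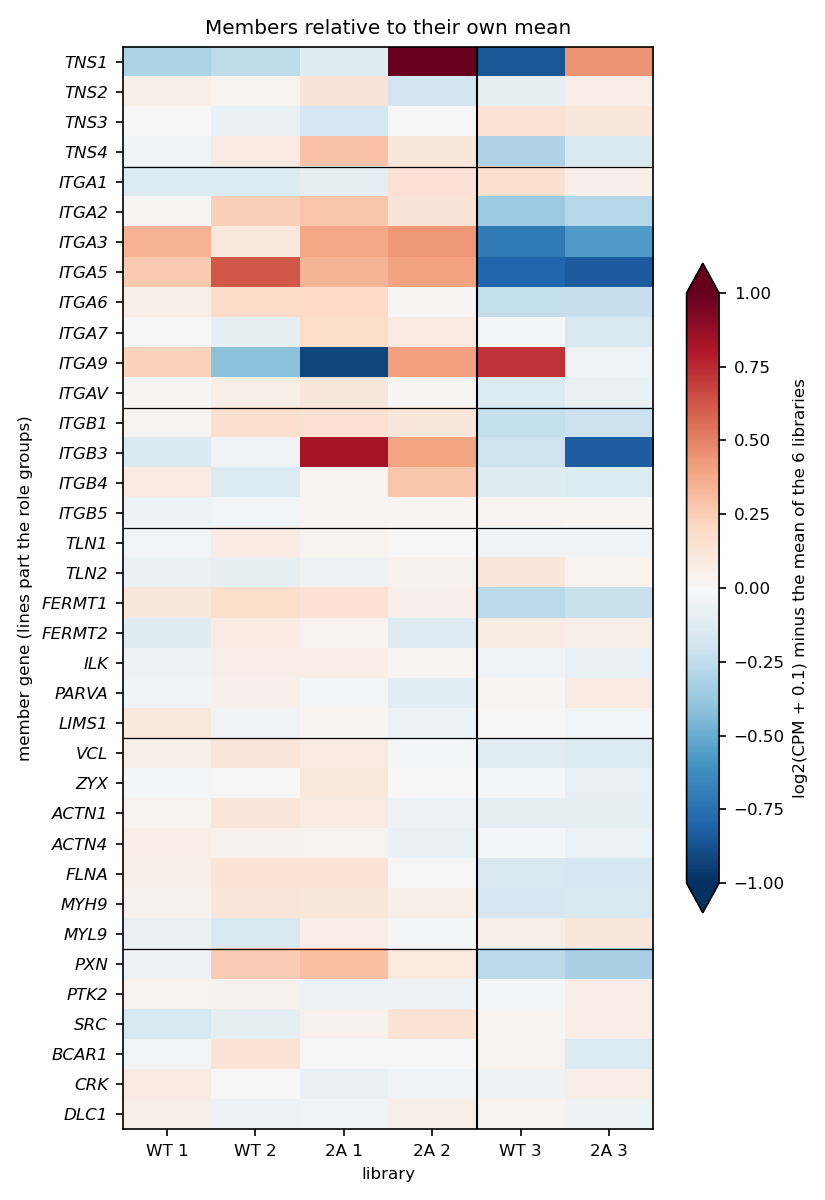
Level of each member tested in each library relative to its own mean (colour, difference in log2(CPM + 0.1); columns, libraries, with those numbered 3 to the right of the vertical line; rows, genes by role; values beyond −1 and 1 are drawn at the end colours). ITGA3 and ITGA5 are lowest in both libraries numbered 3, and TNS1 is highest in replicate 2 of VEZF1-2A.

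Neighbouring genes of the adhesion pathway were examined as 3 further lists, described by counts. Of 4 other integrin subunits tested, 0 had an unadjusted p under 0.05, against 2.13% of all genes tested, and their median log2 fold change was −0.05. Of 34 other adhesion site proteins tested, 0 had an unadjusted p under 0.05, against the same 2.13%, and the median was −0.01. Both libraries numbered 3 were below the rest in 12 of these 34 (15.3% of all genes) and above them in 2 (15.4% of all genes). They were below in 6 and above in 7 of the 25 matrix ligands tested, and below in 0 and above in 1 of the 4 other integrin subunits. Of 25 matrix ligands tested, 1 had an unadjusted p under 0.05, against 2.13% of all genes tested. It was COL4A1, a basement membrane collagen chain. COL4A1 had 2, 4 and 8 counts with VEZF1-WT and 8, 12 and 10 with VEZF1-2A. It passed the filter on low counts only through the VEZF1-2A libraries, where it was higher. Whether it was tested thus depended on that group, and its p-value is not read as a result. In these lists 0 genes had an unadjusted p under 0.05 and a higher level with VEZF1-WT, against 0.832% of all genes tested. Likewise 0 passed the adjusted threshold in the quasi-likelihood test of edgeR, Benjamini-Hochberg adjusted, as for all genes (0%).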

How the data were processed

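RNA of HepG2 cells was sequenced in 3 VEZF1-WT and 3 VEZF1-2A libraries, grouped by their titles. The authors deposited 1 table of whole-number read counts per gene, not normalized, with positions on GRCh38 (per the labels). Libraries came from a column kit and a poly(A)-primed mRNA kit. The aligner, counting program and strand setting are not given in the sources used here, so reads of overlapping genes may be split or shared, and 24 of the 40 members share exon bases with another gene. In each library 65.7% to 67.5% of counts from 11 to 100 were even numbers, so a printed count may exceed the number of fragments behind it, and counts halved were tried as an alternative. Lines of 1 broken entry (5 lines) were left out, and 0 columns of per-sample values were left unmapped.

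Counts were fitted in R 4.3.3 with edgeR 4.0.16 over all genes (filterByExpr with minimum count 10 and minimum total 15, TMM factors 0.98 to 1.01, glmQLFit and glmQLFTest, group alone, two-sided, prior count 0.125). P-values were adjusted after Benjamini and Hochberg for all 19111 genes tested. Median prior degrees of freedom were 6.35 and the biological coefficient of variation was 9.71%. The script was also tested on counts simulated from the means and spread of this fit, with known fold changes given to some genes. Single genes were compared by the exact permutation test of log2(CPM + 0.1), which cannot go below 0.1. Levels between genes are per kilobase of the table's exon length. Intervals are 95% and cover the fitted spread, and values are means ± SD of 3 libraries. Alternatives used DESeq2 1.42.0, its size factors, other filters, halved counts, the replicate number as a block and libraries left out. Figures used matplotlib 3.10.9 in Python 3.11.15.

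The members and lists were chosen with earlier results of these data known. Named with values are the tensins, members with an unadjusted p under 0.05 or with groups that do not overlap, the most abundant member per length of each role, ITGB1, ITGA5 and ITGAV; genes of other lists are named only with an unadjusted p under 0.05. Further members named in the text, and those in the promoter search, were chosen after their values were seen. A further list of genes is not reported here.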

Additional observations from a re-analysis of the deposited data

How the results depend on the processing

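A total of 13 alternatives were run, and of 149 values of single named genes 122 kept their direction and side of the threshold and 26 changed sign. Genes with an adjusted p under 0.05 (0 of all tested in edgeR) numbered 3 under the DESeq2 test, 16 with no filter on low counts, 6 with the replicate block and 4 with both libraries numbered 3 left out. At an unadjusted p under 0.05 (408 genes), these were 219, 896, 825 and 833, with 154 when overlapping genes were left out and 292 to 973 when 1 library was. Members lower with VEZF1-WT at an unadjusted p under 0.05 (2) numbered 1 under DESeq2 (TNS1), 1 with overlapping genes left out (SRC; TNS1 was then not tested), 4 with both libraries numbered 3 left out (TNS1, TNS4, ITGB3 and SRC) and 1 to 4 with 1 library left out. With no filter they were 2, TNS1 and TNS4. The shares of all genes lower at this threshold were 0.842% under DESeq2, 1.21% with overlapping genes left out and 2.49% with both libraries numbered 3 left out. These shares were 0.926% to 2.61% with 1 library left out and 1.18% with no filter. Members whose groups did not overlap (2) numbered 1, 13 and 2 to 7 with overlapping genes, both libraries numbered 3 and 1 library left out, in that order, against 6.9%, 33.3% and 13.4% to 21.4% of all genes. TNS1 had a log2 fold change of −1.10 and passed the adjusted threshold with no filter (adjusted p = 0.006828, edgeR), and ranged from −1.36 to −0.72 with 1 library left out. For the replicate block, deviations of same-numbered libraries correlated at 0.08, 0.14 and 0.36 over all genes tested and at 0.22, 0.34 and 0.74 over the more abundant genes, while replicate 2 of VEZF1-WT correlated best with replicate 1 of VEZF1-2A (0.16 and 0.58), and the labels give the numbers no meaning, so whether they pair the samples is not settled. With the block TNS1 was −1.05 (adjusted p = 0.3667, edgeR), SRC −0.16 (unadjusted p = 0.0152) and TNS4 −0.17 (unadjusted p = 0.0113). Signs near 0 changed for TNS2 (0.01 with no filter, 0.08 with both libraries numbered 3 left out) and MYH9 (0.01 with no filter). With 1 library left out, ranges were −0.10 to 0.06 for TNS2, −0.03 to 0.10 for TNS3, −0.27 to 0.38 for ITGA5, −0.10 to 0.12 for ITGA6, −0.08 to 0.01 for ITGAV, −0.14 to 0.07 for ITGB1, −0.03 to 0.03 for TLN1, −0.08 to 0.07 for MYH9, −0.01 to 0.07 for CRK, −0.28 to −0.06 for TNS4, −0.81 to −0.07 for ITGB3. The cause of these changes was not tested. TNS1, ITGA5 and ITGB3 rest on at most 132 counts per library; with counts halved TNS1 was −1.16 (unadjusted p = 0.00491) and ITGB3 −0.44 (0.247, edgeR).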
